A study of Arabidopsis thaliana with 36 samples.

Results

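The heat shock protein genes of Arabidopsis thaliana were taken as every gene whose annotation in the deposited table contains the words "heat shock protein" or "heat-shock protein" in any case, which gave 47 of 27444 genes. Their mRNA levels came from 36 strand-specific RNA-seq libraries, 3 for each of 12 groups, made from mature rosette leaves and from roots of hydroponic plants. The plants were the wild type Col-0 (WT), a ppsr1 T-DNA knockout (KO) and 1 representative line that overexpresses AtPPSR1 (OE), and all were raised with 200 µM phosphate (Pi) until the last 24 h, when Pi was given at 200 µM or at 0 µM. The labels describe the 3 libraries of a group as independent biological replicates and give all 36 the same batch label. No plant was labelled as heat-treated, and neither table used here ties the name PPSR1 to a gene, so the targeted gene was not analysed here.

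Heat shock proteins are molecular chaperones. HSP70 and HSP90 proteins bind and release client proteins in cycles of ATP hydrolysis, HSP60 chaperonins enclose a client in a chamber, HSP100 proteins pull proteins out of aggregates, and small heat shock proteins hold unfolded proteins until other chaperones act on them. Some are made in every cell at ordinary temperature, as housekeeping chaperones of the cytosol, endoplasmic reticulum, mitochondria and plastids. Others are nearly silent until heat activates heat shock factors, which bind repeats of the letters GAA and TTC, called heat shock elements, in their promoters. A further group in the endoplasmic reticulum, the BiP proteins, is induced when unfolded proteins build up there, partly through promoter sequences called endoplasmic reticulum stress elements.

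The 47 genes fell into 17 HSP70 genes, 11 small HSP genes, 4 HSP90 genes, 3 HSP60 genes, 1 HSP100 gene, 3 genes annotated as DnaJ proteins with tetratricopeptide repeats and 8 others. The annotation rule is broad. TTA1 (AT1G14740), annotated as a putative class I heat shock protein, is known as TITANIA1, a PHD-finger protein, and the 8 others, TTA1 among them, are not grouped further. It also leaves out relatives with other wording, such as HSC70-1, annotated as a heat shock cognate protein. Members with near-identical copies share reads that the counting could split either way, so their separate values are uncertain: 47.7% of the 31-base words of the BIP1 coding sequence occur elsewhere, mainly in BIP2, and 44.0% of those of HSP81-3, mainly in HSP81-2. The values were 36.4% for HSP81-2, 34.6% for Hsp81.4, 28.7% for Hsp70-15 and 25.4% for HSP91, and 64.1% for AT4G32208, mainly in the mitochondrial HSP70 gene AT5G09590. AT4G16540, a small HSP gene described further on, shared 14.8%, mainly with the member AT2G03020.

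Promoter letters are shown for 4 members. HSP17.4 and BIP3 hold, respectively, the motifs of the heat and endoplasmic reticulum responses in duplicate. AT4G16660 holds 1 endoplasmic reticulum stress element and 1 copy of GAANNTTC, which is shorter than the heat motif of HSP17.4. AT4G16540 is the single member that passed the test for a response to Pi. Each line gives the 200 bases that end 1 base before the gene start of the RefSeq annotation, build TAIR10.1, read 5′ to 3′ on the gene's own strand. Capitals mark the fixed letters of a motif.
HSP17.4: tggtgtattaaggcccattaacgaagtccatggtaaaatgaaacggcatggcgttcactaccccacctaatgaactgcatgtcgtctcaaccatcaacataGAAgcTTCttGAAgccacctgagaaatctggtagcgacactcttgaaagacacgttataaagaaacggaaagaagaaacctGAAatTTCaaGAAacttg
BIP3: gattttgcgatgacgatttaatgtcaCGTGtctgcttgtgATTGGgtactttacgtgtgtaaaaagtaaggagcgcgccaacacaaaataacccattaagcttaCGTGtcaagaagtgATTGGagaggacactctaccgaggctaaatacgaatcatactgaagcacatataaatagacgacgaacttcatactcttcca
AT4G16660: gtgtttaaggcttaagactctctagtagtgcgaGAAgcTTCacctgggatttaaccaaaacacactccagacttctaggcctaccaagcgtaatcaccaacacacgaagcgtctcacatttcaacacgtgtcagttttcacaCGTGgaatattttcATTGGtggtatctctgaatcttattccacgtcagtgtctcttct
AT4G16540: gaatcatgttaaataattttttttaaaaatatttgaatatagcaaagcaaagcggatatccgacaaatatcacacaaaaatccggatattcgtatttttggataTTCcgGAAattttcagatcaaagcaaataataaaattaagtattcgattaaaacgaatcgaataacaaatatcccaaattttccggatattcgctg

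The HSP17.4 window is chr3:16984868-16985067 on the minus strand and holds 2 copies of a heat shock element of 3 units, GAA, TTC and GAA with 2 free bases between neighbours, which begin 99 and 18 bases before the start. The BIP3 window is chr1:2931851-2932050 on the minus strand and holds 2 copies of the endoplasmic reticulum stress element (CCAAT, 10 free bases and CACG) on the opposite strand, where it reads CGTG, 10 free bases and ATTGG, and these begin 174 and 96 bases before the start. The AT4G16660 window is chr4:9376499-9376698 on the plus strand, with 1 copy of the same element and 1 of GAANNTTC, and the AT4G16540 window is chr4:9317263-9317462 on the minus strand, with 1 copy of TTCNNGAA.

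Over the 250 bases before the start, both strands searched, the element of 3 units was found in 1 of the 47 members, HSP17.4, and in 0.386% of the 27443 promoters of the table's genes. The 2-unit form (GAANNTTC or TTCNNGAA), which every element of 3 units contains, was found in 10 members (21.3%) and in 16.1% of all promoters. The endoplasmic reticulum stress element was found in 2 members (4.26%) and in 0.689% of all promoters. A match describes the letters only, and the windows end where the annotated transcript begins.

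Levels are given in FPKM as the authors deposited them, reads scaled to the length of the coding sequence and to the total of the library, so genes can be set side by side. Depth, recovered from the steps of 1 read in low values, lay between 6700000 and 13230000 reads in leaf libraries and between 2070000 and 11820000 in root libraries. The organs matched their labels: 8 leaf marker genes summed to between 85600 and 151000 FPKM in leaf and between 674 and 4090 in root, and 8 root markers to between 15.2 and 35.1 in leaf and between 358 and 895 in root. 6 libraries stood apart in that genes with coding sequences over 4000 bases lay more than 0.4 below the organ's middle on the log2 scale: WT leaf replicate 2 and KO leaf replicate 1 at 200 µM, WT and OE leaf replicate 1 at 0 µM, and WT root replicates 2 and 3 at 200 µM. The heat shock protein genes were low in 4 of these 6 libraries, with a median deviation of -0.42 in WT leaf replicate 2 and -0.53 in WT root replicate 2 at 200 µM, and of -0.41 in WT leaf and -0.35 in OE leaf replicate 1 at 0 µM, but not in KO leaf replicate 1 (-0.02) or WT root replicate 3 (0.12) at 200 µM, and OE leaf replicate 1 at 200 µM, which is not among the 6, lay at -0.41. For Pi responses and comparisons of lines, results that depend on these libraries are given with and without them. Between organs the calls of some single members also depended on them, and there the range of counts over the alternatives is given.

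**Figure D1:**
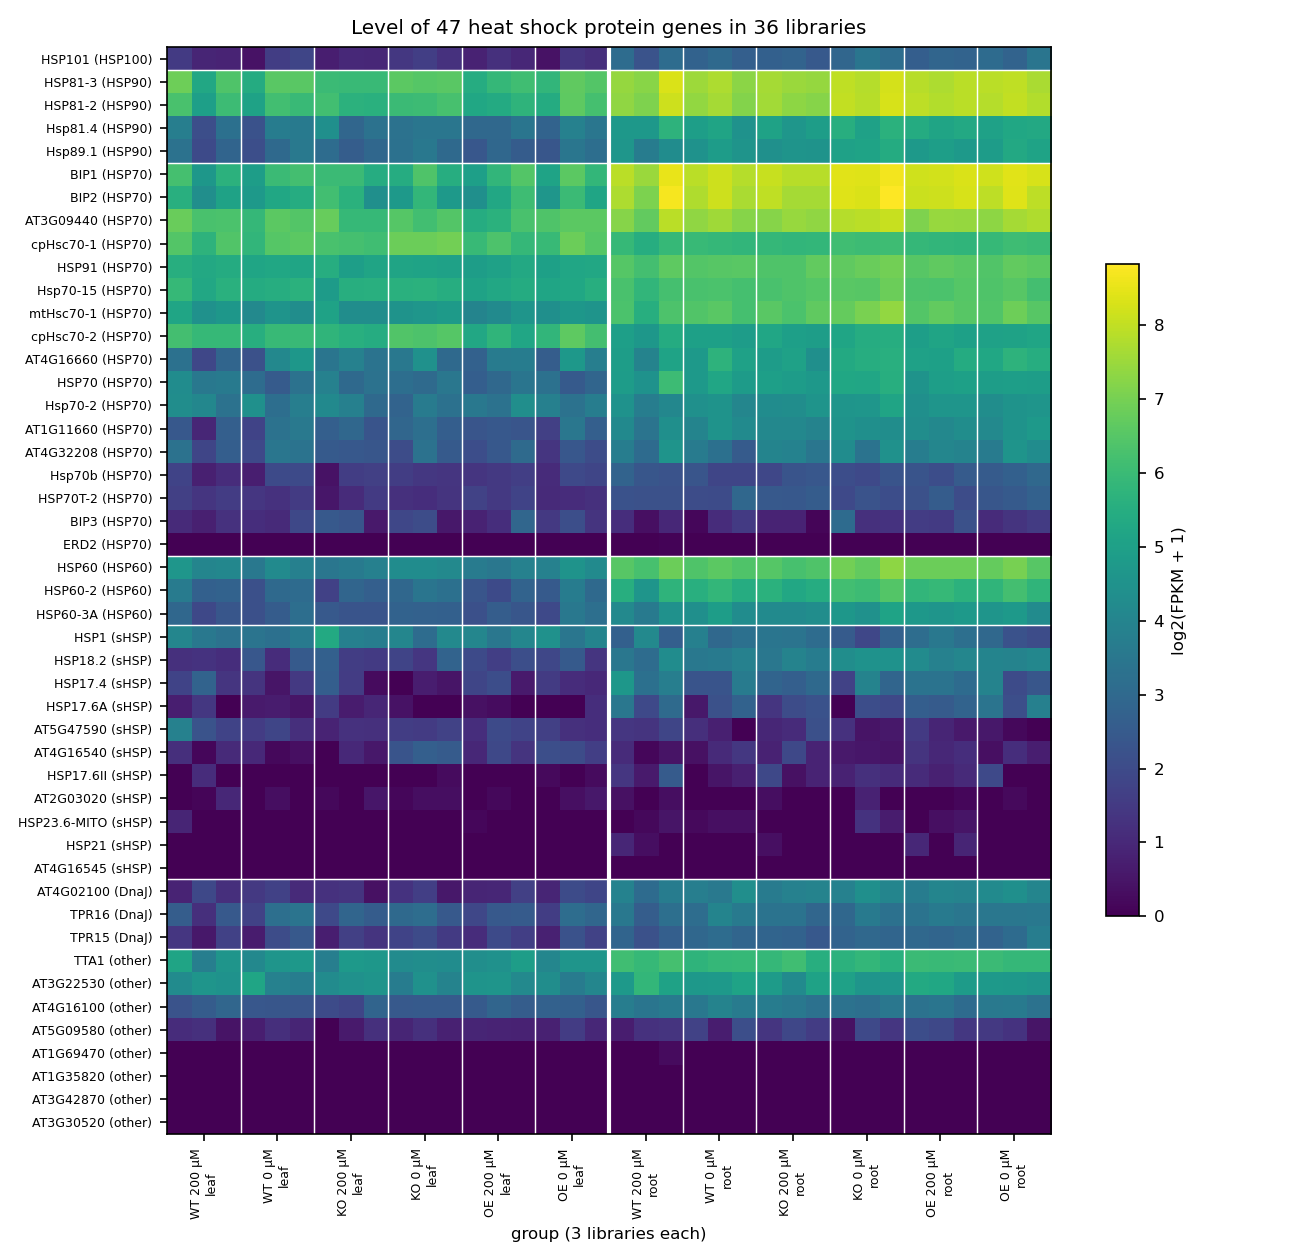
Level of the 47 heat shock protein genes (rows, by class and then by level) in 36 libraries (columns, 3 per group), as log2(FPKM + 1) on the colour scale. The HSP90, BIP1, BIP2, AT3G09440 and HSP60 rows are brighter in the root columns, the cpHsc70 rows are bright in leaf, and the lower rows of the small HSP and other classes stay near 0.

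The most abundant members in both organs were HSP70 and HSP90 genes, and most small HSP genes were low. Among HSP90 genes, which encode chaperones of signalling proteins, the cytosolic HSP81-3 averaged 74.7 FPKM in leaf (38.1 to 116 over 18 libraries) and 217 in root (152 to 319), and HSP81-2 averaged 58.4 and 212. Hsp81.4 averaged 9.39 in leaf and 34.5 in root, and the mitochondrial Hsp89.1 averaged 6.86 and 26.9. Within the HSP90 class the order was the same in both organs, with the pair HSP81-3 and HSP81-2 overlapping in range and both above Hsp81.4 and Hsp89.1.

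Among HSP70 genes, the plastid chaperones cpHsc70-1 (83.1 FPKM on average, 51.5 to 123) and the cytosolic AT3G09440 (78.8, 43.2 to 110) stood highest in leaf, followed by cpHsc70-2 (61.5) and BIP1 (56.2), and their ranges overlapped. In root BIP1 (289, 177 to 410) and BIP2 (273, 135 to 451), the main HSP70 proteins of the endoplasmic reticulum, stood highest, followed by AT3G09440 (182, 102 to 267). The third BiP gene, BIP3, which is known for its induction by endoplasmic reticulum stress, averaged only 2.14 in leaf (0.48 to 6.44) and 1.63 in root (0.1 to 7.48). Cytosolic HSP70 genes known for induction by heat were low beside AT3G09440: HSP70 (AT3G12580) averaged 8.84 in leaf and 32.1 in root, and Hsp70b averaged 1.82 and 4.06.

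The mitochondrial chaperonin genes HSP60, HSP60-2 and HSP60-3A averaged 15.3, 6.5 and 5.21 FPKM in leaf and 102, 53.3 and 21.8 in root. HSP101, the disaggregase of the HSP100 class that plants need for acquired heat tolerance, averaged 1.25 in leaf (0.35 to 2.58) and 6.57 in root (3.79 to 9.85). Among small HSP genes HSP1 (AT4G14830), annotated as a class II small HSP, had the highest mean in leaf. It averaged 14.3 in leaf (7.78 to 39.6) and 7.60 in root (2.67 to 16.7).

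The class I genes HSP18.2 and HSP17.4 averaged 2.84 and 1.81 FPKM in leaf and 14.7 and 8.57 in root. HSP17.6A, a class II gene, averaged 0.527 in leaf and 4.84 in root, and HSP17.6II averaged 0.0983 and 1.17. HSP21, the plastid small HSP, was listed at 0 in all 18 leaf libraries, which allows a level of up to 0.0225 FPKM (3 reads over 194620000, counting error only), and was above 0 in 5 root libraries. The mitochondrial HSP23.6-MITO was at 0 in 25 of the 36 libraries. AT1G35820, AT3G30520, AT3G42870 and AT4G16545 were at 0 in all 36, and ERD2 and AT1G69470 were each above 0 in a single root library. For tests a gene needed a mean of at least 1 FPKM over the 18 libraries of an organ, or over all 36 for the comparison of organs. In leaf 35 of the 47 members passed and in root 37, and among small HSP genes only 5 of 11 passed in leaf and 6 of 11 in root.

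limma was fitted over all genes that passed the filter, and each log2 change refers to FPKM + 1 and carries its standard error (SE) and a Benjamini-Hochberg adjusted p. The 1 added to each value makes changes of genes at low FPKM smaller. The threshold was an adjusted p of 0.05. In bulk tissue, more cells of a type and more RNA per cell cannot be told apart.

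In WT most heat shock protein genes had a higher relative level in root than in leaf at both Pi levels. At 200 µM, 29 of the 37 tested members were higher in root and 2 were lower, and at 0 µM 25 were higher and 2 lower. Both counts of higher members include HSP17.6A, which reached the filter only through its root values (mean 0.527 FPKM in leaf and 4.84 in root). Its call at 0 µM was lost in 9 of 12 settings. Of all 19327 genes tested, 51.3% were higher and 18.5% lower at 200 µM, and 56.1% higher and 17.3% lower at 0 µM, so much of the count is shared by genes in general. The members' median log2 difference was 1.32 at 200 µM, with 0.67 over all genes, and 1.34 at 0 µM, with 0.79 over all genes. FPKM are relative to each library's total, which in leaf is shared with the very abundant photosynthesis genes. With median-of-ratios scaling, which sets libraries level by their typical gene, the median over all genes fell to 0.21 and 0.16 and that of the members to 0.88 and 0.70. The counts were then 23 higher and 3 lower at 200 µM and 16 higher and 3 lower at 0 µM, where 36.4% and 33.4% of all genes were higher and 26.1% and 25.7% lower.

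The HSP60 chaperonins fold proteins in the mitochondrion. In WT at 200 µM HSP60 stood at 18.3 ± 4.89 FPKM (SD, n = 3) in leaf and 93.6 ± 18.8 in root, with a log2 difference of 2.30 (SE 0.20, adjusted p = 2.81e-11), and at 13.9 ± 3.68 and 87.7 ± 7.36 at 0 µM, with 2.6 (SE 0.20, adjusted p = 1.77e-12). All 3 HSP60 genes were higher in root at both levels of Pi, and in every setting tried. HSP60-2 differed by 2.24 and 2.86 and HSP60-3A by 1.64 and 1.91.

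BIP2 and BIP1 had the largest differences of the 16 tested HSP70 genes. BIP2 measured 46.0, 19.4 and 33.1 FPKM in the 3 WT leaf libraries at 200 µM and 212, 135 and 413 in root, so that the groups did not overlap, although the root libraries spread widely. Its difference was 2.84 (SE 0.43, adjusted p = 8.96e-07) at 200 µM and 2.72 (SE 0.43, adjusted p = 1.70e-06) at 0 µM. BIP1 differed by 2.45 and 2.27. BIP3 did not pass the test (-0.19 with SE 0.52, adjusted p = 0.754, and -0.43 with SE 0.52, adjusted p = 0.455).

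All 4 HSP90 genes were higher in root at both levels, by 1.34 to 1.99, with HSP81-3 at 0 µM missing the threshold under the scaling (adjusted p = 0.0562). HSP101 was higher by 1.74 (SE 0.29, adjusted p = 5.21e-06) at 200 µM and by 1.53 (SE 0.29, adjusted p = 3.08e-05) at 0 µM. Its values at 200 µM were 1.82, 0.89 and 0.82 FPKM in leaf and 7.66, 3.79 and 7.69 in root. HSP18.2 was higher by 2.41 (SE 0.36, adjusted p = 7.35e-07) and 1.68 (SE 0.36, adjusted p = 1.31e-04), and AT4G02100, annotated as a DnaJ protein, by 2.22 and 2.50.

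2 members were lower in root. cpHsc70-2 stood at 63.2 ± 7.14 FPKM in leaf and 32.5 ± 9.20 in root at 200 µM (log2 difference -0.97, SE 0.19, adjusted p = 5.70e-05), and at 56.1 ± 9.06 and 30.0 ± 1.61 at 0 µM (-0.87, SE 0.19, adjusted p = 2.09e-04), and it was lower in every setting tried. Its paralogue cpHsc70-1 differed by -0.43 and -0.42 and missed the threshold (adjusted p = 0.0631 and 0.0633), but passed with the scaling, at -0.95 and -1.12 (adjusted p = 5.51e-05 and 5.45e-06). At 200 µM cpHsc70-1 also passed without WT leaf replicate 2 (-0.67, SE 0.21, adjusted p = 0.00653). At 0 µM it passed without WT leaf replicate 1 (-0.67, SE 0.21, adjusted p = 0.00566). Without all 6 libraries low in long genes its differences were -0.52 and -0.67. AT5G47590, a gene of the HSP20 family, was lower too (-1.12, SE 0.39, adjusted p = 0.0115, and -0.88, SE 0.39, adjusted p = 0.0413), and the call was lost in 2 of 12 settings at 200 µM and in 6 of 12 at 0 µM. Hsp70-15, of the HSP110-like branch of HSP70, was higher by 0.50 at 200 µM (SE 0.18, adjusted p = 0.0135) and turned to -0.03 under the scaling (adjusted p = 0.887). AT3G09440, higher by 0.81 and 1.07, kept its direction but not its call under the scaling (0.28 and 0.37, adjusted p = 0.396 and 0.266).

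**Figure D2:**
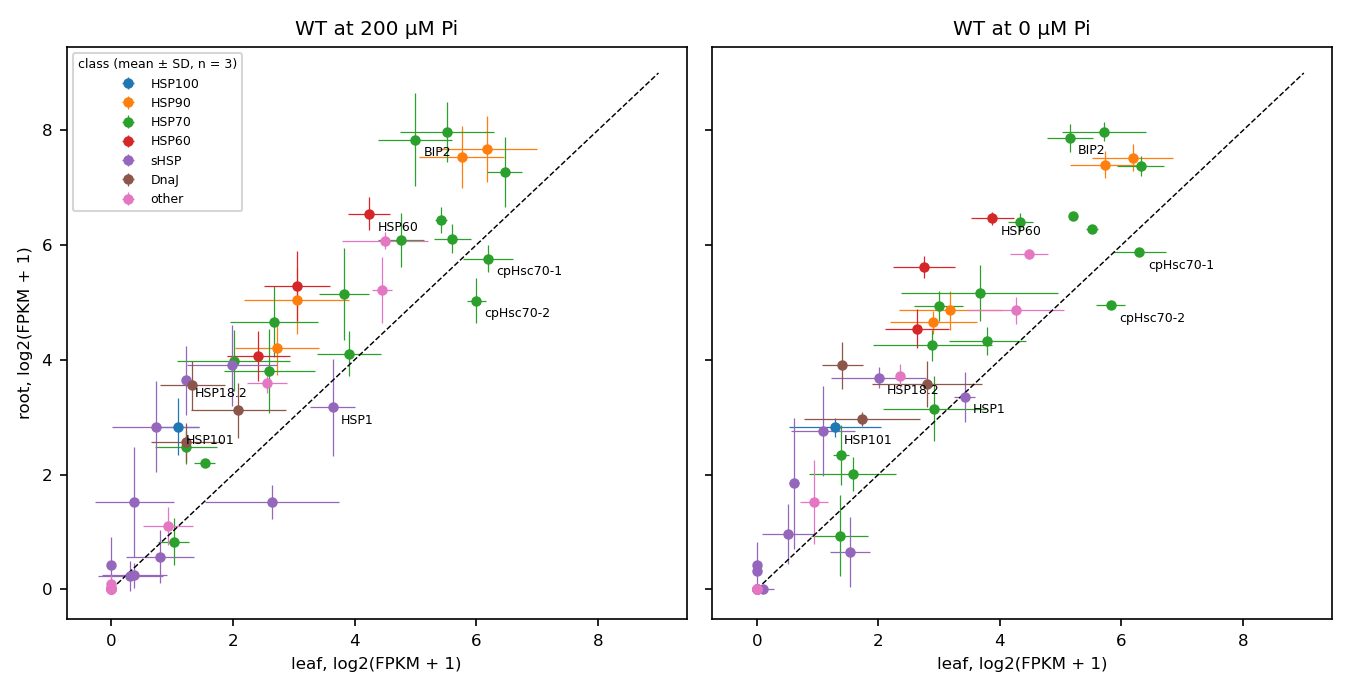
Level of the heat shock protein genes in WT root (y axis) and WT leaf (x axis) at 200 µM and 0 µM Pi, as log2(FPKM + 1), with points for the mean and bars for the SD of 3 libraries, coloured by class. Most points lie above the dashed line of equal levels, with HSP60 and BIP2 far above it and cpHsc70-2 and cpHsc70-1 below it.

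Lists of genes that work with these chaperones were read against the 51.3% of all genes that were higher in root at 200 µM and the median of 0.67 over all genes. Of 19 co-chaperone genes, which deliver clients or regulate HSP70 and HSP90, 17 were higher and 1 lower in root at 200 µM, with a median of 1.19, and HOP3, an adaptor between HSP70 and HSP90, was higher by 3.04 (SE 0.28, adjusted p = 7.33e-11). Of 12 other genes for folding in the endoplasmic reticulum, 9 were higher, with a median of 1.15 over the 12, and 1, the calreticulin gene CRT3, was lower (-1.41, SE 0.24, adjusted p = 6.79e-06). Of 17 tested heat shock factor genes and MBF1C, 11 were higher, a share near that of all genes, with a median of 0.90, and 1, HSFA8, was lower (-1.85, SE 0.22, adjusted p = 1.61e-08). Among these HSFA7A differed most, by 3.79 (SE 0.42, adjusted p = 2.72e-09). In leaf alone, 15 of the factor genes and 18 of the co-chaperone genes reached the filter. The 17 and 19 therefore include genes that reached it only through their root values. Their direction was largely set by the filter, which raises the counts and medians of these 2 lists at both Pi levels. Which genes these were, and whether HSFA7A was among them, is not given here. With median-of-ratios scaling, where 36.4% of all genes were higher and their median was 0.21, the counts of higher genes fell to 12 of 19, 7 of 12 and 7 of 17, with medians of 0.75, 0.73 and 0.44. HOP3, CRT3, HSFA8 and HSFA7A kept their direction and their call there. At 0 µM 16, 10 and 10 genes of the 3 lists were higher, where 56.1% of all genes were, and 6, 7 and 6 with the scaling, where 33.4% of all genes were, so that the co-chaperones and heat shock factors then stood near the share of all genes.

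Removal of Pi for 24 h moved few heat shock protein genes past the threshold. In WT leaf 0 of 35 members passed, where limma called 1 gene in all, 0.00606% of the 16489 tested, and 2 members had an unadjusted p under 0.05, as 6.22% of all genes had. In OE leaf 0 of 35 passed, with 0.801% of all genes called, and 4 members had an unadjusted p under 0.05, as 8.45% of all genes had. In root 0 of 37 passed in WT, KO and OE, where 1.96%, 3.53% and 0.235% of the 19166 genes tested were called. At an unadjusted p under 0.05 stood 3 members in WT root, where 20.1% of all genes did, 16 in KO root, where 19.7% did, and 1 in OE root, where 5.93% did. limma on reads recovered from the FPKM values, with voom weights, also called 0 members in each of these. In KO leaf 1 of 35 passed, with 1.10% of all genes called, and 4 members had an unadjusted p under 0.05, as 14.6% of all genes had.

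The gene called in KO leaf was AT4G16540, of the HSP20 and alpha crystallin family, for which no specific role is given in the sources used here. It measured 0, 1.04 and 0.50 FPKM in KO leaf at 200 µM and 3.87, 5.39 and 4.84 at 0 µM. All 3 libraries at 0 µM lay above all 3 at 200 µM, and above every other leaf library. It was higher at 0 µM by 1.96 (SE 0.36, adjusted p = 0.00959). Part of its coding sequence is shared with AT2G03020, so reads of that gene could enter its count. These levels rest on few reads: 0.0, 8.0 and 4.0 at 200 µM and 33.2, 38.1 and 35.1 at 0 µM, of 8900000 to 12270000 per library.

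In WT leaf AT4G16540 measured 1.29, 0.11 and 1.07 FPKM at 200 µM and 1.00, 0.13 and 0.29 at 0 µM, and in OE leaf 0.98, 2.76 and 1.49 and then 3.38, 3.10 and 2.08. The Pi levels overlapped in WT, and in OE the highest value at 200 µM lay inside the range at 0 µM. Set against WT at 0 µM, KO was higher by 1.99 (SE 0.36, adjusted p = 0.0831) and OE by 1.42 (SE 0.36, adjusted p = 0.974). The difference between the Pi responses of KO and WT was 2.25 (SE 0.51, adjusted p = 0.0921). Without the 6 libraries low in long genes the Pi response of KO was 1.70 (adjusted p = 0.00809), KO against WT at 0 µM was 2.23 (SE 0.29, adjusted p = 0.0102) and the difference of responses was 2.55 (SE 0.44, adjusted p = 0.0417). In the last pair 0.0302% and 0.254% of all genes tested were called higher. The call in KO leaf was lost with a pseudocount of 0.1 (3.54, adjusted p = 0.0631), with voom (3.59, adjusted p = 0.0719) and without KO leaf replicate 2 at 0 µM (1.88, adjusted p = 0.0676). The authors' deposited table gives AT4G16540 a ratio of 9.22 in KO leaf, with an adjusted p of 0.00455, where 2.24% of all genes are under 0.05. In root its mean was 0.908 FPKM, under the filter.

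**Figure D3:**
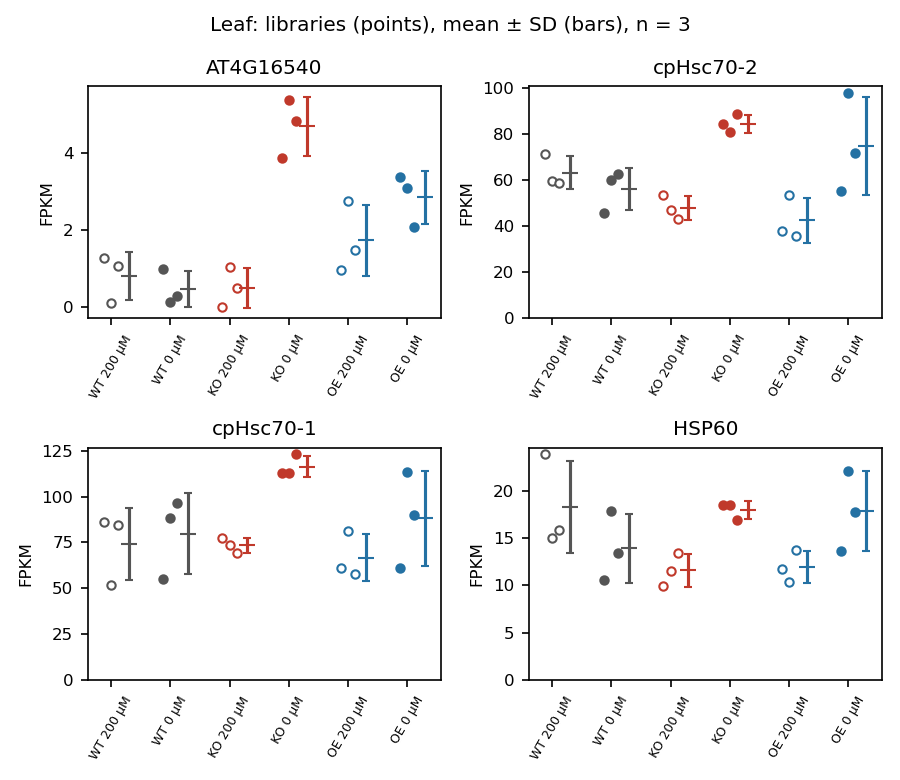
FPKM of 4 heat shock protein genes in leaf, with 1 point per library (open at 200 µM, filled at 0 µM) and the mean ± SD of 3 libraries beside them, by genotype and Pi level. In KO the points at 0 µM lie above those at 200 µM in all 4 panels, and the WT points overlap in each panel.

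The plastid HSP70 genes followed in leaf without passing. These proteins fold and help import proteins in the chloroplast stroma. cpHsc70-2 measured 53.6, 46.9 and 43.1 FPKM in KO leaf at 200 µM and 84.2, 80.7 and 88.6 at 0 µM (0.81, SE 0.21, adjusted p = 0.0808). In OE leaf it measured 37.9, 53.7 and 35.9 and then 55.2, 97.6 and 71.6 (0.79, SE 0.21, adjusted p = 0.129). In WT leaf the values were 71.5, 59.6 and 58.6 at 200 µM and 45.8, 60.2 and 62.5 at 0 µM. The groups did not overlap in KO or OE and overlapped in WT.

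cpHsc70-1 stood at 73.3 ± 4.14 FPKM in KO leaf at 200 µM and 116 ± 5.91 at 0 µM (0.66, SE 0.25, adjusted p = 0.247), and HSP60 at 11.6 ± 1.76 and 18 ± 0.956 (0.60, SE 0.24, adjusted p = 0.259). In KO leaf 9 of the 35 members did not overlap between Pi levels, all higher at 0 µM, where 15.4% of all genes did not overlap in that direction. The members' median was 0.20, with 0.15 over all genes.

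Without the 6 libraries low in long genes, which include KO leaf replicate 1 at 200 µM and OE leaf replicate 1 at 0 µM, both plastid genes passed in both lines. In KO leaf the values were 0.89 (SE 0.18, adjusted p = 0.0194) for cpHsc70-2 and 0.70 (SE 0.16, adjusted p = 0.0304) for cpHsc70-1, and in OE leaf 0.98 (SE 0.18, adjusted p = 0.00804) and 0.61 (SE 0.16, adjusted p = 0.0355). 3 members were then called in KO leaf and 6 in OE leaf, all higher at 0 µM, where 2.40% and 6.09% of all genes tested were called in that direction. The other 4 in OE leaf were HSP81-2 (0.97), HSP81-3 (0.73), AT3G09440 (0.80) and HSP60-3A (1.00), with SE of 0.18 to 0.24. Leaving out only OE leaf replicate 1 at 0 µM gave 1 call in OE leaf, cpHsc70-2 (0.98, SE 0.22, adjusted p = 0.0479), with 0.648% of all genes called higher.

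In KO root, members of several classes lay higher at 0 µM than at 200 µM and stopped short of the threshold. Of the 37 tested members 15 were higher and 1 lower at an unadjusted p under 0.05, where 11.3% of all genes were higher and 8.36% lower, and 0 passed after adjustment. The groups did not overlap for 19 members that were higher and 2 that were lower at 0 µM, where 15.9% and 10.3% of all genes did not overlap. The members' median was 0.34, with 0.09 over all genes, and with the scaling 0.26 and 0.01. The smallest adjusted p was 0.0685.

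That gene was HSP60, at 89.3, 76.1 and 82.8 FPKM in KO root at 200 µM and 122, 104 and 158 at 0 µM (0.60, SE 0.18). Every value at 0 µM lay above every value at 200 µM. In WT root the values were 91.4, 76.0 and 113 and then 83.7, 96.2 and 83.3, and in OE root 114, 113 and 113 and then 106, 128 and 90.7, and in both genotypes the Pi levels overlapped. HSP60-2 stood at 43.3 ± 5.23 in KO root at 200 µM and 73.6 ± 11.4 at 0 µM (0.75, SE 0.23, adjusted p = 0.0839).

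All 4 HSP90 genes had positive changes in KO root. HSP81-2 measured 192, 160 and 148 FPKM at 200 µM and 258, 233 and 310 at 0 µM (0.68, SE 0.21, adjusted p = 0.0864), and Hsp89.1 measured 20.4, 22.8 and 22.2 and then 31.9, 33.6 and 42.3 (0.69, SE 0.21, adjusted p = 0.0781). HSP81-3 stood at 182 ± 14.6 and 262 ± 41.1 (0.51, SE 0.22, adjusted p = 0.196). None of these 3 overlapped between Pi levels in KO. In WT root HSP81-2 measured 162, 138 and 282 FPKM at 200 µM and 168, 198 and 144 at 0 µM. In OE root it measured 247, 222 and 238 and then 229, 257 and 223. The Pi levels overlapped in both genotypes, and every OE value at 200 µM lay above every KO value at 200 µM.

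The HSP70 genes of the endoplasmic reticulum and the mitochondrion had changes of like size in KO root. BIP2 measured 250, 200 and 198 FPKM at 200 µM and 338, 318 and 451 at 0 µM (0.76, SE 0.28, adjusted p = 0.142), and BIP1 stood at 244 ± 21.5 and 362 ± 41.1 (0.56, SE 0.20, adjusted p = 0.125). BIP3, whose promoter letters are printed above, measured 0.82, 0.82 and 0.10 and then 7.48, 1.36 and 1.47 (1.25, SE 0.45, adjusted p = 0.132). A single library held the high BIP3 value. AT4G16660, an HSP70 relative, stood at 26.8 ± 6.08 and 43.2 ± 3.31 (0.69, SE 0.28, adjusted p = 0.176), and mtHsc70-1, which draws proteins into mitochondria, at 91.1 ± 10.2 and 134 ± 30.3 (0.53, SE 0.21, adjusted p = 0.173). In WT root BIP2 measured 212, 135 and 413 FPKM at 200 µM and 218, 283 and 206 at 0 µM. In OE root it measured 276, 286 and 313 and then 245, 334 and 245. The Pi levels of BIP2 overlapped in both, and its OE values at 200 µM all lay above those of KO at 200 µM.

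Small HSP genes did not share one direction in KO root. HSP18.2 measured 10.2, 14.6 and 12 FPKM at 200 µM and 19.0, 21.4 and 21.8 at 0 µM (0.72, SE 0.24, adjusted p = 0.0992). HSP1 went the other way, at 9.64, 9.51 and 7.64 and then 4.84, 2.67 and 5.63 (-0.92, SE 0.36, adjusted p = 0.163), and in OE root at 7.97, 10.6 and 8.32 and then 6.97, 3.66 and 3.15 (-0.88, SE 0.36, adjusted p = 0.690). Of the 6 tested small HSP genes 2 had positive changes in KO root, with a median of -0.29, while the medians of the HSP90, HSP60 and HSP70 classes were 0.60, 0.60 and 0.37.

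**Figure D4:**
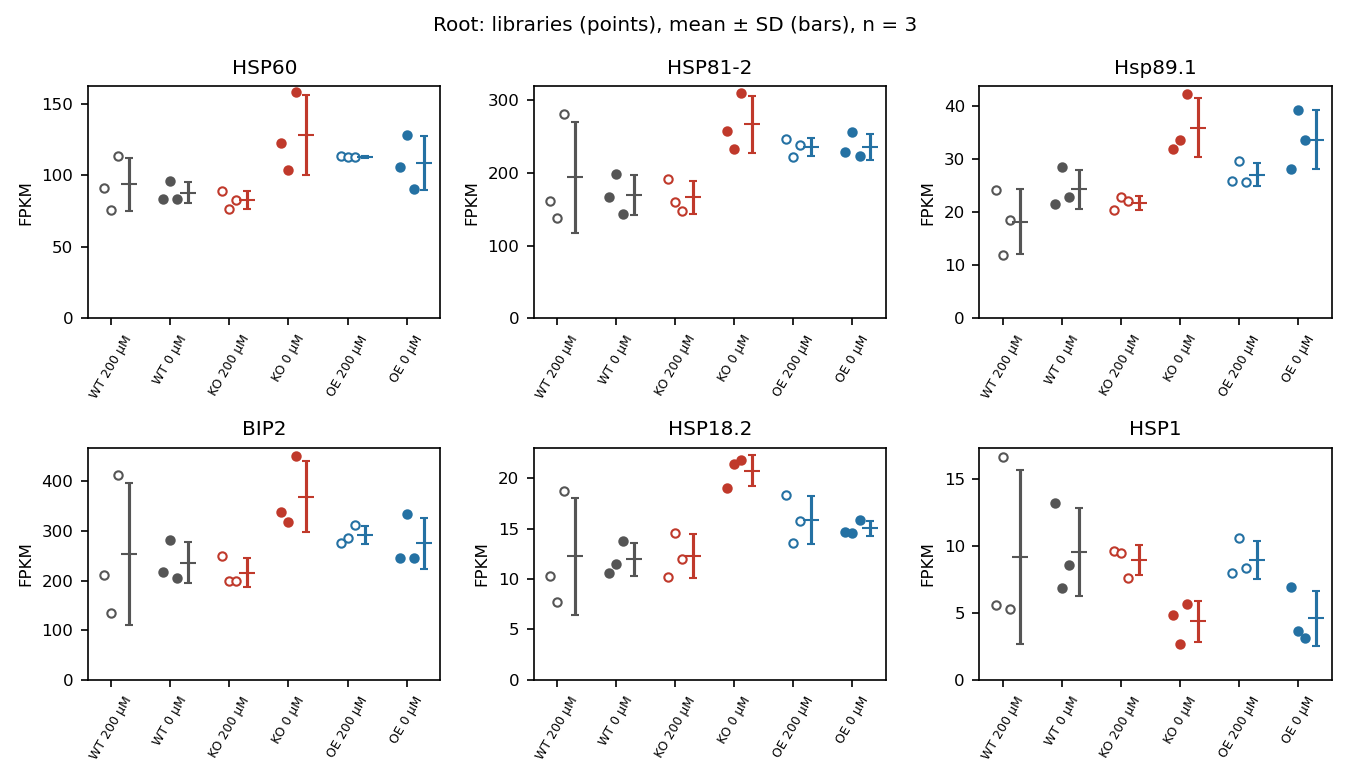
FPKM of 6 heat shock protein genes in root, with 1 point per library (open at 200 µM, filled at 0 µM) and the mean ± SD of 3 libraries beside them, by genotype and Pi level. In KO the points at 0 µM lie above those at 200 µM for HSP60, HSP81-2, Hsp89.1, BIP2 and HSP18.2 and below them for HSP1.

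The count in KO root depended on which libraries set the spread. Without the 6 libraries low in long genes, none of which is a KO root library, 9 of 35 members were called, all higher at 0 µM, where 3.22% of all genes tested were called in that direction. They were HSP60-2, HSP81-2, BIP2, BIP1, HSP18.2, Hsp89.1, AT3G09440, HSP60 and HSP81-3, with changes of 0.51 to 0.76 that are the same as with all libraries and adjusted p between 0.0112 and 0.0441. The authors' deposited table has 9 members under 0.05 in KO root, all higher at 0 µM, where it has 1.39% of 27444 genes in that direction: BIP2, HSP60-2, HSP81-2, Hsp89.1, BIP3, AT3G09440, BIP1, AT4G16660 and HSP60. 2 of the 3 KO root libraries at 0 µM were shallow, with 2710000 and 3270000 reads, while the other 4 KO root libraries had 5140000 to 7760000. The part of this depth difference in the result was not tested.

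KO and WT root at 0 µM were apart in a similar way, with the same KO libraries in both comparisons. Of 37 members 15 were higher and 1 lower in KO at an unadjusted p under 0.05, where 3.43% of all genes were higher and 8.77% lower, and 0 passed after adjustment, with 0.0522% of all genes called. The median was 0.34, with -0.05 over all genes. Of the 8 leaf markers 8 also had positive changes, with a median of 0.32, and 0 passed. They summed to between 674 and 2060 FPKM in WT root and between 1240 and 2460 in KO root, and none was at 0. In the Pi response of KO root 1 of the 8 had a positive change, with a median of -0.16, and the sum was between 1570 and 2010 at 200 µM. The part of leaf RNA in either result was not tested. HSP18.2 stood at 11.9 ± 1.64 FPKM in WT and 20.8 ± 1.5 in KO (0.75, SE 0.24, adjusted p = 0.226), HSP81-2 at 170 ± 27.4 and 267 ± 39.1 (0.65, SE 0.21, adjusted p = 0.233) and mtHsc70-1 at 83.8 ± 9.79 and 134 ± 30.3 (0.65, SE 0.21, adjusted p = 0.237). HSP18.2 passed without the 6 libraries low in long genes (0.75, SE 0.17, adjusted p = 0.0498), where 0.109% of all genes were called higher.

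The other comparisons of a line with WT called 0 members by limma, and 0 by voom. limma called 0.873% of all genes for KO leaf at 200 µM and 0.0364% at 0 µM, 0.382% and 0.0303% for OE leaf, 0.0313% for KO root at 200 µM, and 0.0417% and 0.0678% for OE root. At an unadjusted p under 0.05 KO leaf had 2 of 35 at 200 µM and 3 at 0 µM, OE leaf 5 and 2, KO root 0 of 37 at 200 µM, and OE root 4 and 6. Over all genes 13.7% and 2.60%, 8.13% and 3.57%, 13.1%, and 12.3% and 7.13% had such a p. Tests of the difference between the Pi responses of a line and of WT also called 0 members by limma and by voom. In leaf 4 members for KO and 3 for OE had an unadjusted p under 0.05, as 9.26% and 8.24% of all genes had, and 0.127% and 0.352% of all genes were called. In root 4 and 2 members had one, as 11.7% and 4.82% of all genes had, and 0 genes were called. Those of HSP60 and HSP81-2 in KO root were 0.68 (SE 0.25) and 0.81 (SE 0.30), each with an adjusted p of 0.332. The larger change of these genes in KO root than in WT root was therefore not shown by the test of the difference.

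A few members varied widely between the libraries of a group. AT5G47590 measured 13.7, 3.77 and 2.45 FPKM in WT leaf at 200 µM and 0.85, 1.38 and 1.32 in KO leaf (-1.52, SE 0.41, adjusted p = 0.0984), and passed without WT replicate 3 (-1.95, SE 0.40, adjusted p = 0.0386), where 0.545% of all genes were called lower. AT4G16660 had the widest range within a group, at 3.59, 16.5 and 24.5 in WT leaf at 0 µM. HSP17.4 measured 5.25, 1.94 and 0.19 in KO leaf at 200 µM and 2.36, 14.3 and 6.31 in KO root at 0 µM, and HSP17.6A 0.49, 3.55 and 5.83 in WT root at 0 µM. Hsp70b had the smallest unadjusted p for OE against WT root at 0 µM, at 5.79 ± 1.08 and 3.07 ± 0.866 (0.75, SE 0.24, adjusted p = 0.517).

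**Figure D5:**
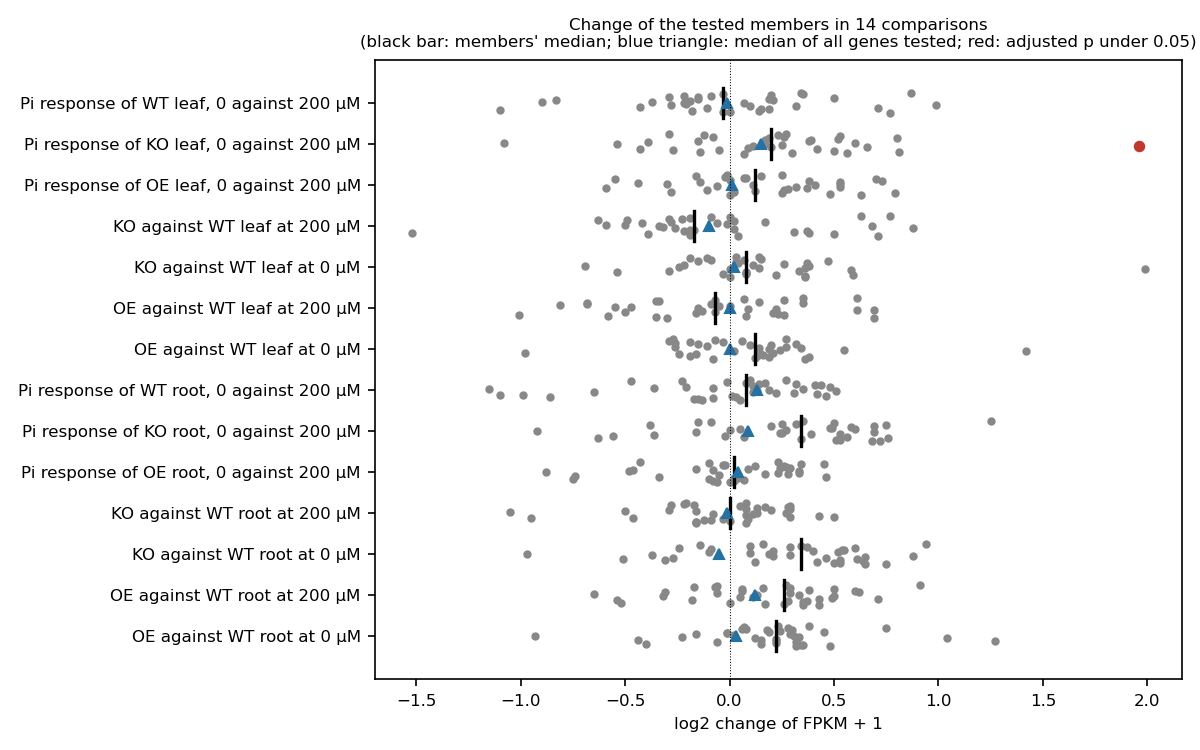
Log2 change of FPKM + 1 of each tested heat shock protein gene (grey points, red where the adjusted p is under 0.05) in 6 Pi responses and 8 comparisons of a line with WT, with the members' median as a black bar and the median of all genes tested as a blue triangle. The red point is AT4G16540 in KO leaf, and the bars lie to the right of the triangles in KO root (0.34 and 0.09) and in KO against WT root at 0 µM (0.34 and -0.05), and by less in OE against WT root at 0 µM (0.22 and 0.03) and 200 µM (0.26 and 0.12), in OE leaf (0.12 and 0.01) and in OE against WT leaf at 0 µM (0.12 and 0). The bars lie to the left in KO against WT leaf (-0.17 and -0.1) and OE against WT leaf (-0.07 and 0) at 200 µM. They also lie to the left in the Pi responses of WT root (0.08 and 0.13), OE root (0.02 and 0.04) and WT leaf (-0.03 and -0.01).

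Few of the regulators and partners of these chaperones passed the test for a response to Pi. Of the heat shock factor genes and MBF1C, 15 were tested in leaf and 18 in root, and those that passed in a Pi response were HSFC1 and MBF1C. HSFC1 was lower at 0 µM in KO leaf (-1.89, SE 0.30, adjusted p = 0.0036) and OE leaf (-2.27, SE 0.30, adjusted p = 0.00273) and higher in KO root (0.80, SE 0.19, adjusted p = 0.0241). MBF1C, a coactivator induced by heat, was lower at 0 µM in WT root (-1.10, SE 0.22, adjusted p = 0.0166). Of 19 co-chaperone genes 1 passed, ROF1, an immunophilin that binds HSP90, which was higher at 0 µM in KO root (0.90, SE 0.24, adjusted p = 0.0475), where 3.53% of all genes were called. In KO root 16 of the 19 had positive changes and their median was 0.35, with 0.09 over all genes. Of 12 other genes for folding in the endoplasmic reticulum 0 passed there (10 positive, median 0.54). Of 31 non-member genes annotated as HSP20-like, 18 were tested in leaf and 25 in root. AT4G21870 passed in OE leaf, where it was higher at 0 µM (1.98, SE 0.44, adjusted p = 0.046) and lower than in WT at 200 µM (-2.67, SE 0.44, adjusted p = 0.00809). Of all genes 0.801% and 0.382% were called in these 2 comparisons.

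After subtracting group means, the genes outside the set whose levels followed the members' mean most closely over the 18 leaf libraries had r of 0.94 to 0.96, and they included AT5G26360, a TCP-1 chaperonin subunit gene, and AT1G65280, annotated with a DNAJ domain. Over the 18 root libraries r reached 0.93 to 0.97, and the 10 closest genes included PDIL1-1, a protein disulfide isomerase gene. These correlations describe variation between libraries of a group, and the points share their libraries. The part of depth and of the level of long genes in them was not tested.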

How the data were processed

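Libraries were stranded by dUTP, per the labels' protocols. Reads were processed with Trimmomatic, HISAT2 2.2.1, TAIR10 and DESeq2, per the submitters' processing notes. How reads were counted was not given in the sources used here. FPKM per library were deposited by the authors: FPKM times coding length in kb summed to between 974165 and 1016892 per library. The deposited table also gives the authors' ratio of group means and adjusted p-value for each Pi response, in which WT leaf runs 200 µM over 0 µM, per the file headers; they entered no test. At least 99.8% of low values in each library were whole multiples of 1 read within 0.1 read, which gave the depth. Molecules carried no identifiers, so the limits given for counts of 0 take in counting error alone.

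Genes whose mean reached 1 FPKM entered, as log2(FPKM + 1), limma 3.58.1 (R 4.3.3, with trend), 1 fit per organ with its 6 groups and 1 over all 36 libraries for the organs, with Benjamini-Hochberg adjustment within each of 20 comparisons. The fit was tested on simulated data. Alternatives were a pseudocount of 0.1, no filter, median-of-ratios scaling, a replicate block and each library left out; voom on recovered reads and leaving out the 6 libraries low in long genes were added after seeing the data, as was the scaling of the gene lists. The plan named for description the called members, the highest members of each class and the widest ranges within a group. The members, classes and gene lists were chosen with earlier results of these data known. All 47 members matched a locus of the RefSeq annotation of TAIR10.1, the source of names, sequences and motif windows; 27443 of 27444 genes had a full window.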

Additional observations from a re-analysis of the deposited data

How the results depend on the processing

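The 2 comparisons of WT root with WT leaf kept their counts within 1.5 times under every alternative run: 26 to 33 members called at 200 µM (31 as reported) and 19 to 27 at 0 µM (27 as reported), with 27 to 31 and 24 to 27 when single libraries were left out. These counts take both directions together. As reported, 51.3% of all genes tested were higher in root and 18.5% lower at 200 µM, and 56.1% and 17.3% at 0 µM. Much of each count is therefore shared by genes in general. The replicate block left every count of called members as it was, at 1 in the Pi response of KO leaf, 31 and 27 between organs and 0 elsewhere. By the median, same-numbered libraries of different groups were no more alike than differently numbered ones. Deviations from group means of same-numbered libraries correlated with a median of -0.03 in leaf (-0.37 to 0.72, 10 of 45 pairs over 0.1) and -0.05 in root (-0.35 to 0.22, 7 of 45). For different numbers the median was 0.02 in leaf (-0.65 to 0.56, 28 of 90) and 0.02 in root (-0.29 to 0.34, 21 of 90). Pairing between some of the groups cannot be judged from these medians.

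Where a count moved, the Pi response of KO leaf fell from 1 call to 0 with a pseudocount of 0.1 and with voom and reached 3 without the libraries low in long genes, with 0 to 1 when single libraries were left out. Without the libraries low in long genes the count was 6 in the Pi response of OE leaf, 9 in that of KO root, and 1 each in KO against WT leaf at 0 µM, the KO interaction in leaf and KO against WT root at 0 µM, where it was 0 with all libraries. That setting leaves WT root at 200 µM with 1 library, assumed to vary like the other groups. Leaving out single libraries gave 0 to 1 in the Pi response of OE leaf (replicate 1 at 0 µM), of KO root (HSP60, adjusted p = 0.0428 without replicate 2 at 0 µM) and in KO against WT leaf at 200 µM (WT replicate 3). The cause was not tested. In leaf 6 of the 11 small HSP genes and in root 5 did not reach the mean needed for a test, so nothing is said of their changes.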
